A study of Rattus norvegicus with 16 samples.

Results

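Collagens are extracellular proteins built from 3 chains wound into a triple helix, and each chain is encoded by a gene of its own. Fibrillar collagens such as types I and III assemble into the cable-like fibrils that form most of a cardiac scar and resist stretch. Type IV chains form the sheet-like networks of the basement membranes around cardiomyocytes and vessels, and types XV and XVIII sit in or beside those membranes. The remaining collagens include the beaded filaments of type VI, the short-chain type VIII and types that bind to fibrils or cross cell membranes. In the heart, fibroblasts are the main source of fibrillar chains, and endothelial and mural cells contribute much of type IV.

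The collagen family was taken here as every gene in the deposited tables whose name has the form of a collagen chain (Col, a type number, a and a chain number). It held 38 of the 17085 genes, and 31 of the 38 had enough counts to be tested. By type number, 10 were fibrillar (types I, III, V, XI, XXIV and XXVII), 7 were basement membrane chains (types IV, XV and XVIII) and 21 were other collagens. All 10 fibrillar chains, all 7 basement membrane chains and 14 of the 21 others passed the filter on low counts. Chains absent from the tables were not analysed here.

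Bulk mRNA sequencing was done on the infarct zone of rat hearts, with 4 libraries in each of 4 groups. In MI the left anterior descending branch of the coronary artery was ligated, and Sham hearts were the controls; the labels give the tissue of all 4 groups, Sham included, as infarct zone. MI_soft and MI_stiff hearts had the ligation and a soft or a stiff hydrogel, which the series title describes as injected into the heart muscle; both gel groups thus share the ligation with MI. Rat strain, age, sex, the gel material and the time after surgery are not given in the labels, and the extraction protocol names MI/R (a common abbreviation for ischaemia followed by reperfusion) where the design names only ligation. Whether the 4 libraries per group stand for 4 different rats is not stated, and p-values therefore reflect only the variation among the sequenced samples, part of which may be technical.

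Library totals lay between 10940685 and 14456186 counts. MI replicates 2, 3 and 4 and MI_soft replicate 4 had the fewest genes with a count (10470 to 11785, against 12019 to 12820 in the other 12 libraries). Most results that move without these 4 libraries are given both ways. Without them MI is represented by replicate 1 alone, whose spread is then assumed to be like that of the other groups. MI replicate 1 also stood apart from its group: 27.9% of its counts came from the 13 mitochondrially encoded genes, against 40.4 to 45.8% in MI replicates 2, 3 and 4. Levels per gene are given in TPM, a unit scaled for gene length and library depth. In that unit, 3 skeletal muscle markers summed to 6110 in MI replicate 1 and to 1475 to 1775 in MI replicates 2, 3 and 4. Most of each sum was Acta1 (5473 in MI replicate 1, 1471 to 1768 in the others), which was also at 953 to 1508 in Sham. Tnnt3 was at 366 in MI replicate 1 and 3.65 to 12.2 in MI replicates 2, 3 and 4, and Tnni2 at 271 and 0 to 2.08. The 7 macrophage markers summed to 1402 in MI replicate 1 and to 261 to 394 in MI replicates 2, 3 and 4. The part of these differences in its collagen values was not tested. Differences are log2 differences in counts between groups ± the standard error (SE) of edgeR's quasi-likelihood fit, with Benjamini-Hochberg adjustment across the 11376 tested genes, and a gene was called at an adjusted p under 0.05.

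The infarct zone held several times more collagen mRNA than the Sham tissue in all 3 ligated groups. Summed over the 38 genes, collagen TPM averaged 776 ± 191 (SD, n = 4) for Sham and 3761 ± 1799 for MI. The gel groups averaged 3353 ± 537 (MI_soft) and 3799 ± 1171 (MI_stiff). The highest Sham library reached 932 TPM and the lowest ligated library 2219 TPM, so these totals did not overlap. As a share of TPM without the mitochondrially encoded genes, collagens averaged 0.183% ± 0.0385 in Sham and 0.787% ± 0.258 in MI. In the gel groups that share averaged 0.69% ± 0.12 (MI_soft) and 0.826% ± 0.105 (MI_stiff). The highest sums were in MI replicate 1 (6363 TPM) and MI_stiff replicate 4 (5549 TPM), the 2 libraries with the lowest shares of mitochondrially encoded counts (27.9% and 25.1%); the part of that share in their TPM was not tested. In CPM, scaled for library composition, MI_stiff replicate 4 stayed the highest of its group for Col3a1 (8272 against 5330 to 8174) and Col1a1 (4092 against 2518 to 3440). MI replicate 1 stayed the highest of MI for Col1a1 (4662 against 951 to 2626) but not for Col3a1 (11543 against 7127 to 11927). The fibrillar chains made up most of the increase, from 437 ± 116 TPM in Sham to 3073 ± 1489 in MI. Basement membrane chains summed to 206 ± 37.7 TPM for Sham, 300.1 ± 79.1 for MI, 300.9 ± 57.7 for MI_soft and 378 ± 65.8 for MI_stiff. In bulk tissue, more cells of a type and more RNA per cell cannot be told apart. The summed TPM of 8 fibroblast markers was 501 to 578 in Sham and 2582 to 3393 in MI, and that of 8 cardiomyocyte markers was 29410 to 42340 in Sham and 11800 to 21000 in MI; the part of these shifts in the collagen differences was not tested.

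The mix of chains shifted along with the total. Col3a1, the only chain of type III collagen, gave 27.9% ± 1.89 of collagen TPM in Sham and 48.96% ± 4.74 in MI. Col4a1, a basement membrane chain, went the other way, with 12.3% ± 1.46 in Sham and 3.13% ± 0.565 in MI. The share of Col1a1, a chain of type I collagen, was 10.96% ± 0.686 for Sham, 12.7% ± 5.32 for MI, 15.9% ± 0.683 for MI_soft and 19.1% ± 1.57 for MI_stiff. These shares are compositional: one chain's rise lowers the share of all others.

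In MI against Sham, 16 of the 31 tested collagen genes rose and 1 fell by edgeR's quasi-likelihood test. Over all tested genes, 36.6% were called, 20.2% as higher and 16.4% as lower, so that 55.1% of calls were higher, and 71.4% with library totals alone in place of composition scaling. With library totals alone the median log2 difference of all tested genes was 0.24, and that of the collagens 1.51. The median log2 difference was 1.39 for the collagens and 0.06 for all tested genes. In CPM, counts scaled to library depth and composition, libraries of the 2 groups did not overlap for 14 collagen genes that were higher in MI and 2 that were lower. Over all tested genes, 17.7% did not overlap and were higher, and 20.3% did not overlap and were lower. Fibrillar chains rose in 5 of 10 cases, basement membrane chains in 2 of 7 with 1 fall, and other collagens in 9 of 14.

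**Figure D1:**
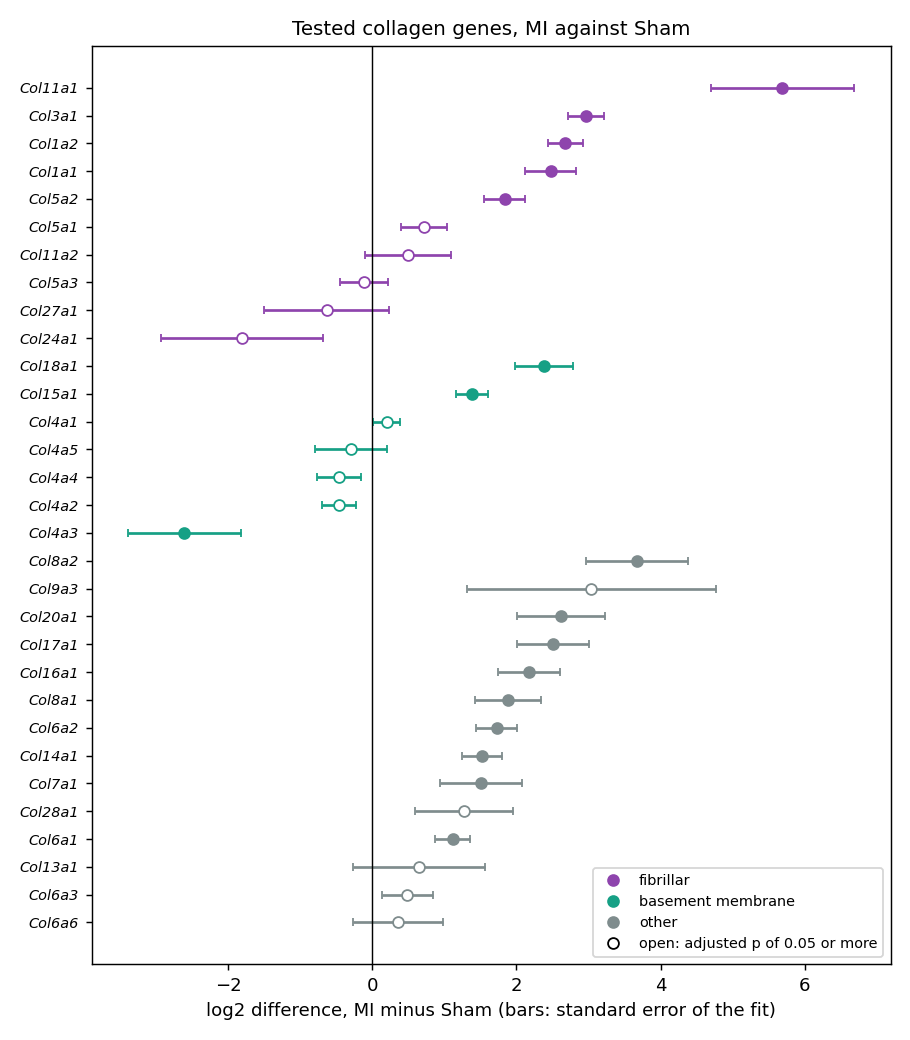
Log2 difference of MI minus Sham for the 31 tested collagen genes (x axis), with the standard error of the edgeR fit as bars, ordered by class and size; filled points had an adjusted p under 0.05. The 16 filled points to the right of 0 range from Col6a1 at 1.11 to Col11a1 at 5.69, and Col4a3 at -2.61 is the only filled point to the left.

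The major fibril-forming chains rose together. Col3a1 measured 264, 142, 188 and 278 TPM in Sham replicates 1 to 4 and 2831, 1462, 1196 and 1686 TPM in MI replicates 1 to 4, a log2 difference of 2.96 ± 0.25 (adjusted p = 3.75e-07). Col1a2, the second chain of type I collagen, measured 95.6, 65.7, 90.2 and 112 TPM in Sham and 942, 598, 338 and 573 TPM in MI, a log2 difference of 2.68 ± 0.24 (adjusted p = 8.03e-07). Col1a1 measured 106, 52.8, 84.2 and 99.5 TPM in Sham and 1256, 443, 175 and 303 TPM in MI, a log2 difference of 2.47 ± 0.36 (adjusted p = 5.87e-05). No MI library overlapped Sham for any of these 3 genes, and in TPM MI replicate 1 was the highest of its group for each. In CPM it was the highest for Col1a1 only, and MI replicate 4 was the highest for Col3a1 and Col1a2. The spread within MI was widest for Col1a1: its log2 difference was 1.98 without MI replicate 1 and 3.36 without the 4 libraries with few detected genes, and the call held in both.

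**Figure D2:**
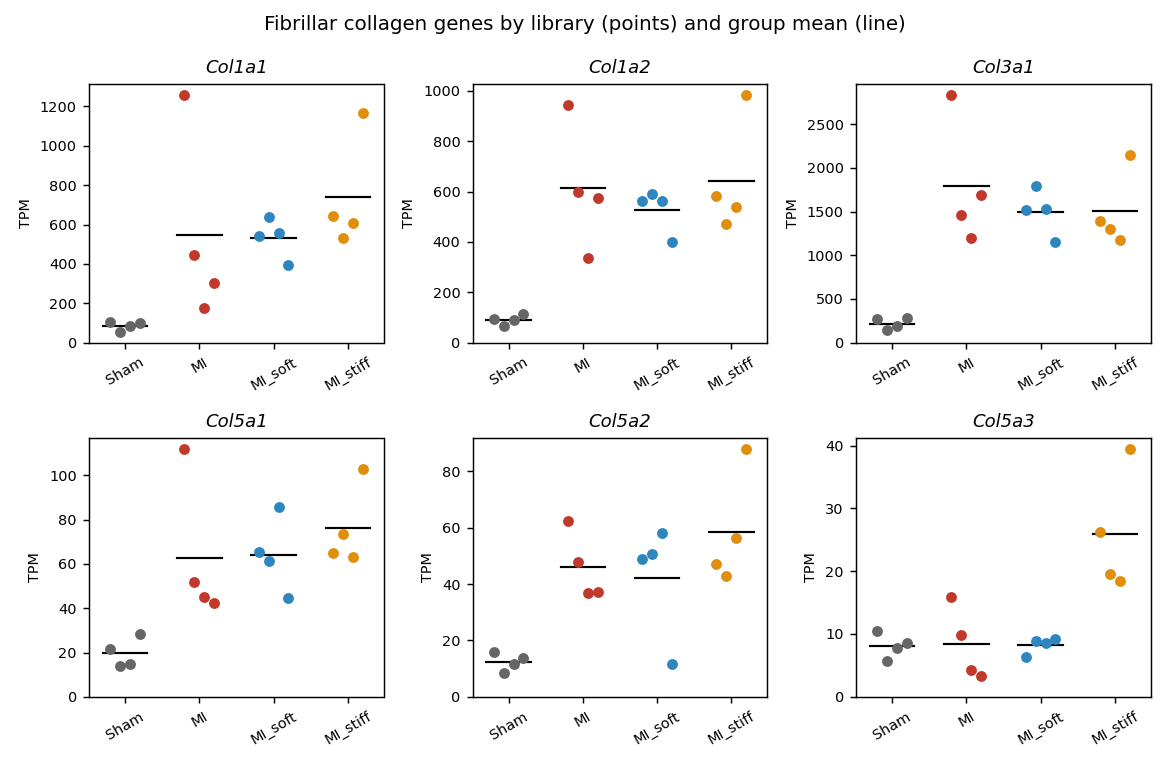
TPM of 6 fibrillar collagen genes (y axes, starting at 0) in each library (points) with group means (lines), 4 libraries per group. Col1a1, Col1a2, Col3a1, Col5a1 and Col5a2 were low in Sham and higher in the ligated groups, except for Col5a2 in MI_soft replicate 4 (11.6 TPM), while Col5a3 reached 18.4 TPM or more only in MI_stiff.

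The bases before the annotated start of Col1a2 are shown because it had, after Col3a1, the smallest adjusted p of the family. The sequence is RefSeq's GRCr8 window at chr4:33518307-33518556 on the plus strand, which lies just outside the gene; the deposited tables used rn7, so no coordinate of the study is implied. Capitals mark matches on either strand to TATAAA (the TATA box), CCAAT (bound by NF-Y) and GGGCGG (bound by Sp1-type factors), and a match on the other strand appears as its reverse complement.

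Col1a2: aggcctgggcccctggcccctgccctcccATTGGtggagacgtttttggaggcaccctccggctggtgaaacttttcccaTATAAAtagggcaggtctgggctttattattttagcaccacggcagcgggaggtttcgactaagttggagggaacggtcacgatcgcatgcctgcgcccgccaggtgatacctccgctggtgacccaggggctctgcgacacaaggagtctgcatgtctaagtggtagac

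The TATAAA match began 170 bases before the annotated start and the CCAAT match 221 bases before it. Of the 38 collagen genes, 32 had a window in the RefSeq table, with 35 windows in all. Among the 250 bases before the start, TATAAA was present in 3 of 35 collagen windows (8.57%, against 12.9% of 33469 windows of all genes), CCAAT in 11 of 35 (31.4%, against 34.0%) and GGGCGG in 18 of 35 (51.4%, against 30.5%). A match describes these letters only, and Col1a1, Col3a1, Col6a2, Col9a3, Col14a1 and Col22a1 were not in the table.

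Type V chains, which nucleate type I fibrils and set their diameter, differed from one another. Col5a2 measured 8.58 to 16.1 TPM in Sham and 62.5, 48.0, 36.9 and 37.3 TPM in MI, and it rose by a log2 difference of 1.84 ± 0.28 (adjusted p = 0.000104). Col5a3 measured 10.5, 5.72, 7.82 and 8.61 TPM in Sham and 15.95, 9.84, 4.22 and 3.35 TPM in MI, with overlapping groups and a log2 difference of -0.12 ± 0.33 (adjusted p = 0.805). For Col5a1 the 2 deposited units gave different pictures. In TPM it was 21.7, 14.0, 14.7 and 28.1 in Sham and 112, 51.8, 45.2 and 42.6 in MI, with no overlap. In counts it was 1237, 624, 907 and 1310 in Sham and 4204, 1468, 734 and 985 in MI, which overlap, and the log2 difference of 0.71 ± 0.32 was not called (adjusted p = 0.0853).

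The gap between the units lay in the gene length that the quantification assigned to Col5a1. RSEM divides counts by an effective length that averages over a gene's transcripts, weighted by their estimated abundance, and that length can be recovered, up to a factor per library, as count divided by TPM. Relative to its Sham mean, the effective length of Col5a1 was 0.806 to 1.16 in Sham and 0.789, 0.507, 0.356 and 0.414 in MI, so every MI library lay below every Sham library. Its mean was 0.654 ± 0.092 (SD, n = 4) in MI_soft and 0.708 ± 0.168 in MI_stiff. Among tested genes at 0.5 TPM or more in every library, 31 of 7886 (0.393%) had a mean effective length in MI that differed from Sham by over 1.5 times, and Col5a1 was 1 of them and the only one of 18 collagen genes. With these lengths as offsets in the edgeR fit, a step chosen after seeing the data, Col5a1 rose in MI against Sham by 1.55 ± 0.22 on the log2 scale (adjusted p = 5.51e-05). In counts without this step, the Col5a1 difference was 0.16 without MI replicate 1 (adjusted p = 0.631), and it was called without MI replicate 3 (0.92, adjusted p = 0.0238) and without the 4 libraries with few detected genes (1.67, adjusted p = 0.000121). Transcript-level estimates were not analysed here, so whether the mix of Col5a1 transcripts differed was not tested.

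Col11a1, a fibrillar chain best known from cartilage, had the largest rise of the family. It measured 0.11, 0, 0.06 and 0.05 TPM in Sham and 4.29, 1.93, 0.5 and 4.54 TPM in MI, without overlap. The log2 difference was 5.69 ± 1.0 (adjusted p = 0.000336), and its size rests on Sham counts of 0 to 11 per library; limma-voom gave an adjusted p of 0.0506. Col11a2 (log2 difference 0.49 ± 0.60), Col24a1 (-1.81 ± 1.13) and Col27a1 (-0.63 ± 0.87) were not called. The window before Col11a1, chr2:204508886-204509135 on the plus strand of GRCr8, is shown for this rise and holds 2 CCAAT and 3 GGGCGG matches and no TATAAA match.

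Col11a1: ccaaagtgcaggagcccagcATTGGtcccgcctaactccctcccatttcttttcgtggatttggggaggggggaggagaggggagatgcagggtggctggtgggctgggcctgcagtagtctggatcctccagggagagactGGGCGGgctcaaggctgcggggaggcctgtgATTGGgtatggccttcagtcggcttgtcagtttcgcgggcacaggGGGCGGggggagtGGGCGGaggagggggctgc

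Basement membrane chains did not move as a block. Col18a1, the core protein whose end fragment is endostatin, measured 2.66, 1.26, 2.37 and 2.55 TPM in Sham and 28.1, 15.3, 3.18 and 7.24 TPM in MI, a rise of 2.39 ± 0.40 on the log2 scale (adjusted p = 0.000238) without overlap. Col15a1, found between basement membranes and the surrounding matrix, measured 55.1, 35.2, 44.2 and 52.4 TPM in Sham and 124, 137, 97.3 and 134 TPM in MI, a rise of 1.38 ± 0.22 (adjusted p = 0.000144) without overlap. Its counts are identical to those of 1 other gene entry in every library, so its level is uncertain, and without the 4 libraries with few detected genes the rise was 0.88 (adjusted p = 0.0108). Col4a3, a type IV chain best known from kidney filters and lung, was low throughout, with 1.93, 0.69, 1.02 and 2.12 TPM in Sham and 0.74, 0, 0.19 and 0.17 TPM in MI. The Col4a3 log2 difference was -2.61 ± 0.78 (adjusted p = 0.0154), and it was -1.45 (adjusted p = 0.135) without the 4 libraries with few detected genes.

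Neither of the main type IV chains, Col4a1 and Col4a2, was called in MI against Sham. Col4a1 measured 105, 71.1, 98.6 and 99.4 TPM in Sham and 151, 121, 72.2 and 102 TPM in MI, with overlapping groups and a log2 difference of 0.20 ± 0.19 (adjusted p = 0.433). Col4a2 measured 57.6, 34.3, 51.4 and 51.6 TPM in Sham and 67.2, 32.7, 20.3 and 32.3 TPM in MI, with a log2 difference of -0.47 ± 0.24 (adjusted p = 0.133). For Col4a2, MI replicates 2, 3 and 4 lay below every Sham library. Without MI replicate 1, the highest of its group in TPM for both genes but not in CPM for Col4a1, Col4a2 was called lower in MI (-0.66, adjusted p = 0.0415). Col4a4 (-0.46 ± 0.31) and Col4a5 (-0.30 ± 0.50) were not called. The effective length of Col4a5 was also shorter in MI, at 0.716 ± 0.063 of the Sham mean (SD, n = 4), so its TPM means of 9.54 in Sham and 11.5 in MI ran against its count difference. The summed TPM of 6 endothelial markers, a cell type that makes type IV chains, was 164 to 218 in Sham and 228 to 255 in MI, and its part in these values was not tested.

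**Figure D3:**
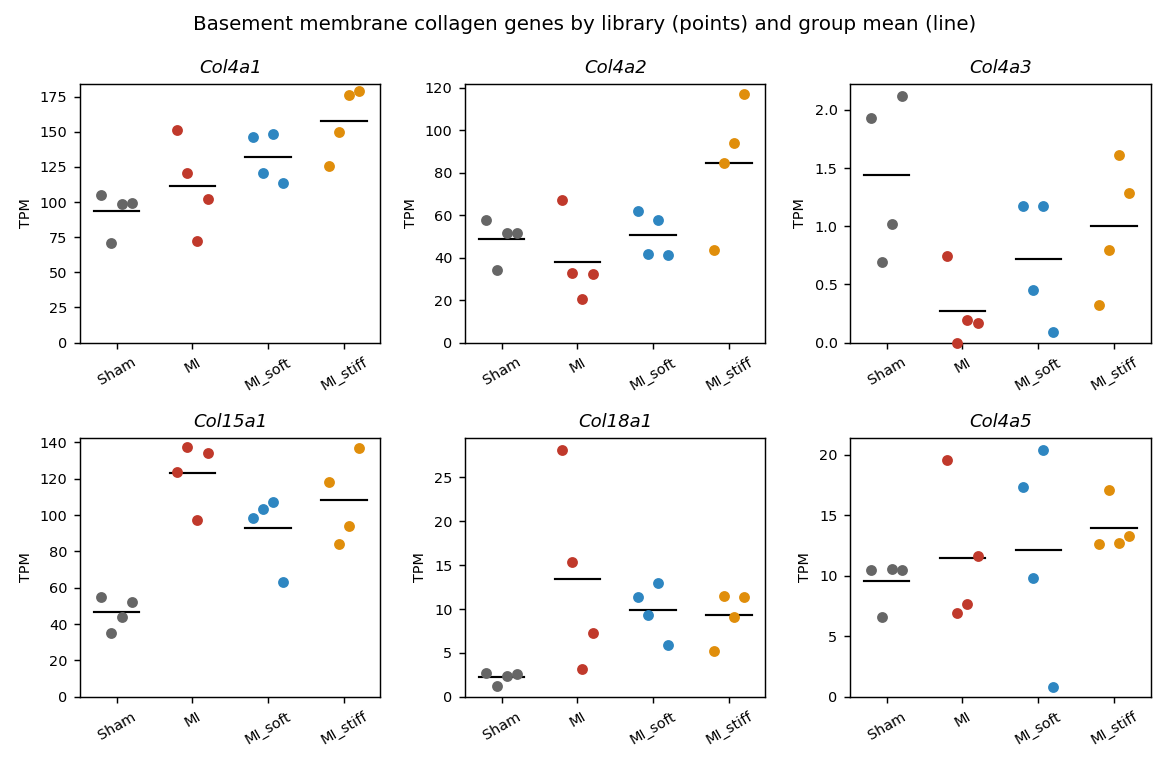
TPM of 6 basement membrane collagen genes (y axes, starting at 0) in each library (points) with group means (lines), 4 libraries per group. Col15a1 and Col18a1 were higher in MI than in Sham in every library, Col4a3 was low throughout (at most 2.12 TPM), and Col4a2 had its highest group mean, 84.6 TPM, in MI_stiff.

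Col4a1 and Col4a2 are transcribed in opposite directions from adjacent starts, and their chains assemble as 2 of Col4a1 with 1 of Col4a2. The sequence between the annotated starts, chr16:84885521-84885596 of GRCr8 on the plus strand (76 bases, 78.9% G or C), is shown because both chains are transcribed from its ends. Capitals mark its only match, GGGCGG on the other strand.

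Col4a1-Col4a2 interval: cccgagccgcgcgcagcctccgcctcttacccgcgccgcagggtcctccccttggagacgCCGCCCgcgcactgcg

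The ratio of Col4a1 to Col4a2 (each as TPM plus 0.1) was 1.82, 2.07, 1.92 and 1.92 in Sham and 2.25, 3.68, 3.53 and 3.16 in MI, without overlap. The mean log2 ratio was 0.68 higher in MI. The exact permutation test gave p = 0.0286 (two-sided, 4 against 4 libraries), the smallest p that design allows, and the adjusted p over the 24 ratio tests was 0.172. In MI_soft the ratio was 2.37, 2.90, 2.57 and 2.76. In MI_stiff it was 2.90, 1.78, 1.87 and 1.53, so 3 of 4 libraries lay at or below the Sham range's top of 2.07.

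Among the other collagens, type VI chains were the most abundant. Col6a1, Col6a2 and Col6a3 encode the 3 chains of the common form of type VI collagen, a filament that links cells to the fibrils around them. Col6a2 measured 60.5, 32.4, 59.1 and 66.9 TPM in Sham and 376, 165, 102 and 148 TPM in MI, and it rose by 1.73 ± 0.29 on the log2 scale (adjusted p = 0.000208) without overlap. Col6a1 measured 59.8, 27.8, 45.1 and 58.6 TPM in Sham and 220, 68.4, 72.1 and 93.1 TPM in MI, a rise of 1.11 ± 0.24 (adjusted p = 0.00183), which was 1.69 without the 4 libraries with few detected genes. Col6a3 measured 23.7, 9.16, 10.4 and 23.7 TPM in Sham and 50.3, 16.4, 16.4 and 19.5 TPM in MI, with overlapping groups and a difference of 0.49 ± 0.35 (adjusted p = 0.286). The Col6a3 difference was 1.09 (adjusted p = 0.0288) without the 4 libraries with few detected genes. The ratio of Col6a1 to Col6a2 was 0.872 ± 0.092 in Sham and 0.584 ± 0.124 in MI (SD, n = 4), without overlap (exact permutation p = 0.0286, two-sided, adjusted p = 0.172).

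Type VIII collagen is a short-chain collagen made by vascular and endothelial cells. Col8a2 measured 0.10, 0.07, 0.22 and 0.28 TPM in Sham and 7.02, 2.01, 0.47 and 0.90 TPM in MI, a rise of 3.67 ± 0.71 on the log2 scale (adjusted p = 0.00074) without overlap. Col8a1 measured 1.89, 2.35, 1.35 and 3.08 TPM in Sham and 21.9, 7.23, 2.62 and 5.83 TPM in MI. It rose by 1.88 ± 0.46 (adjusted p = 0.00415), although MI replicate 3 lay within the Sham range. Both were highest in MI replicate 1, and without it the rises were 2.79 for Col8a2 and 1.37 for Col8a1, both still called.

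Of the rarer chains, Col20a1 rose from 0.01 to 0.30 TPM in Sham to 0.36 to 2.19 TPM in MI (2.61 ± 0.61, adjusted p = 0.0032). Col17a1, a transmembrane collagen of epithelial attachment sites, rose by 2.51 ± 0.50. Col16a1 and Col14a1, both associated with fibrils, rose by 2.17 ± 0.43 and 1.52 ± 0.28, with overlapping libraries for Col16a1. Col7a1, which forms the anchoring fibrils of skin, was called at an adjusted p of 0.0461 (1.51 ± 0.57), and it lost the call under 18 of 26 alternative settings. Col6a6 (0.36 ± 0.62), Col9a3, Col13a1 and Col28a1 were not called, although Col6a6 was without the 4 libraries with few detected genes (1.78, adjusted p = 0.0267).

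Genes whose products process, cross-link, degrade or bind collagen were counted in MI against Sham beside the 20.2% of all tested genes called higher and the 16.4% called lower. Of 17 tested genes for collagen hydroxylation and folding, 12 rose (70.6%) and 1 fell (median log2 difference 0.88, against 0.06 over all tested genes). Those with the largest changes were P4ha3, a prolyl hydroxylase subunit (6.24 ± 1.01), Plod2, which hydroxylates lysines used for cross-links (2.86 ± 0.33), and Fkbp10, a collagen chaperone (2.50 ± 0.31). The size for P4ha3 rests on a very low Sham level, with means of 0.0125 TPM in Sham and 1.28 TPM in MI. Of 14 genes for procollagen cleavage and fibril assembly, 9 rose (64.3%, median 1.63), with Fmod at 3.57 ± 0.75, Loxl1 at 3.01 ± 0.35 and Lum at 2.93 ± 0.33. Fmod and Lum encode small proteoglycans on the fibril surface and Loxl1 a cross-linking oxidase. Of 10 genes of collagen breakdown, 6 rose (60%, median 2.00). They included Timp1, an inhibitor of the collagen-cleaving metalloproteinases (4.62 ± 0.42), as well as the proteases Ctsk (3.19 ± 0.30) and Mmp2 (2.52 ± 0.24).

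All 4 tested receptor genes rose (median 2.63), among them the integrin subunits Itga10 (4.65 ± 1.12) and Itga11 (3.67 ± 0.50) and the collagen-activated kinase Ddr2 (1.58 ± 0.29). The size for Itga10 also rests on a very low Sham level, with means of 0.015 TPM in Sham and 0.42 TPM in MI. Of 12 genes for transcription factors and TGF-beta pathway members, 2 rose (16.7%) and 2 fell (median 0.01), shares close to those of all tested genes. Runx2, a bone and cartilage factor, rose by 2.38 ± 0.50, Smad3 fell by 1.76 ± 0.50 and Scx, a tendon factor, fell by 1.40 ± 0.43 on the log2 scale. Of 8 genes for non-collagen basement membrane proteins, 2 rose (25%, median 0.07), also near the share of all tested genes: Sparcl1 by 1.42 ± 0.27 and the laminin chain Lama4 by 0.49 ± 0.18. The basement membrane partners and the transcription factors thus had medians near that of all genes, while the other 4 lists lay above it. Lum, Dcn and Dpt of the assembly list, all called higher, also stand in the fibroblast marker list, all 8 of whose genes were called higher in MI.

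Between the gel groups and MI, few collagen genes differed by the test. In MI_soft against MI, edgeR called 0 of 31 collagen genes (0.0264% of all tested genes were called, all as lower), and DESeq2 and limma-voom also called 0. At an unadjusted p under 0.05 there was 1, Col15a1, at -0.52 ± 0.22. The median log2 difference was 0.07 for the collagens and 0.05 for all tested genes. The 95% intervals of the main scar chains in this comparison ran from -0.75 to 0.21 for Col3a1, from -0.72 to 0.23 for Col1a2 and from -0.63 to 0.78 for Col1a1. In MI_soft, Col3a1 measured 1520, 1795, 1530 and 1152 TPM, Col1a2 562, 589, 562 and 400.2 TPM and Col1a1 542, 641, 557 and 396 TPM, all within or near the MI range. Without MI replicate 1, 2 genes were called, Col5a1 as higher (0.78, adjusted p = 0.0455) and Col15a1 as lower (-0.67, adjusted p = 0.0445). The Col5a1 difference is in counts, without the effective lengths.

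In MI_stiff against MI, 1 of 31 collagen genes was called, against 1.19% of all tested genes (0.492% higher and 0.694% lower, or 41.5% of calls higher, and 74.3% with library totals alone). That gene was Col5a3, the third type V chain, which is less widely expressed than Col5a1 and Col5a2. It measured 26.2, 19.5, 18.4 and 39.4 TPM in MI_stiff, 15.95, 9.84, 4.22 and 3.35 TPM in MI, and 6.32, 8.87, 8.60 and 9.16 TPM in MI_soft. Every MI_stiff library lay above every library of the other 3 groups. Col5a3 was the only collagen gene whose MI_stiff and MI libraries did not overlap in CPM, against 3.97% of all tested genes that were higher and 3.9% that were lower without overlap. The log2 difference was 1.48 ± 0.34 against MI (95% interval 0.77 to 2.19, adjusted p = 0.0415), 1.36 ± 0.34 against Sham (adjusted p = 0.00792) and 1.39 ± 0.34 against MI_soft (adjusted p = 0.092, not called). These comparisons share the MI_stiff libraries.

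The Col5a3 call against MI lay close to the threshold. It was lost under 18 of 26 alternative settings, among them 14 of the 16 fits that each left out 1 library, with adjusted p-values from 0.00166 to 0.146 and log2 differences from 0.93 to 1.74, all positive. The lowest difference came without the 4 libraries with few detected genes, where MI replicate 1 (15.95 TPM) alone stood for MI; there the difference from MI_soft was called (1.64, adjusted p = 0.00257). DESeq2 also called the difference from MI_soft (1.42, adjusted p = 0.00496).

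Of the markers of the epicardium and mesothelium, the cell layers on the heart's surface, 1 of 4 tested was called in MI_stiff against MI. The summed TPM of the 5 markers in the table was 17.0, 45.3, 72.9 and 73.6 in MI_stiff replicates 1 to 4, 6.89 to 21.2 in MI, 5.45 to 21.8 in MI_soft and 5.44 to 7.47 in Sham. Msln, a mesothelial surface protein, was higher in MI_stiff than in MI (2.87 ± 0.67, adjusted p = 0.0452), with means of 26.7 and 2.64 TPM, and made up most of the difference in the sums. Wt1 (0.04 ± 0.47), Krt8 (-0.04 ± 0.49) and Krt19 (1.48 ± 0.91) were not called. In MI_stiff replicate 1 the marker sum lay within the MI range. The 8 fibroblast markers, none of them called, summed to 1691 to 2780 TPM in MI_stiff and 2582 to 3393 TPM in MI. The 7 macrophage markers in the table, none of them called, summed to 417 to 2151 TPM in MI_stiff and 261 to 1402 TPM in MI. Of the 8 cardiomyocyte markers, Atp2a2 was called higher (1.10 ± 0.24, adjusted p = 0.0391) and 7 were not called. Differences were positive for 5 of these 8, and their summed TPM overlapped (13530 to 24310 in MI_stiff, 11800 to 21000 in MI). Of 6 smooth muscle and pericyte markers, Tagln was called lower (-1.85 ± 0.41, adjusted p = 0.0387) and 5 were not called. Differences were positive for 2 of these 6, and their summed TPM overlapped (190.5 to 369 in MI_stiff, 209 to 706 in MI). The part of any of these cell types in the Col5a3 difference was not tested.

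The window before Col5a3, chr8:27626003-27626198 on the minus strand of GRCr8, is shown because this chain alone was called between ligated groups. It is 196 bases long and stops 54 bases short of the start used for the RefSeq window, where the annotated gene begins. It holds 1 CCAAT match and 3 GGGCGG matches, and no TATAAA match.

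Col5a3: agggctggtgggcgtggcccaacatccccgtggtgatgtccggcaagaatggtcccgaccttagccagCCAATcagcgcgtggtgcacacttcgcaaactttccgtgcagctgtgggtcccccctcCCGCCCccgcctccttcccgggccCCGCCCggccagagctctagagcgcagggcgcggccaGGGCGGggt

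The next chain after Col5a3 in this comparison was Col4a2. It measured 43.3, 84.3, 93.9 and 117 TPM in MI_stiff, where replicate 1 lay within the MI range and the other 3 above it. The log2 difference from MI was 0.93 ± 0.24 (95% interval 0.43 to 1.44, adjusted p = 0.0618), and Col4a2 was called by DESeq2 (0.97, adjusted p = 0.00562) and in 3 of 16 fits that each left out 1 library (MI replicate 1, MI_soft replicate 4 or MI_stiff replicate 1). Without MI replicate 1, 3 collagen genes were called higher in MI_stiff than in MI: Col5a3, Col4a2 and Col5a1 (0.96, adjusted p = 0.021). Again the Col5a1 difference is in counts, without the effective lengths. The ratio of Col4a1 to Col4a2 was lower in MI_stiff than in MI by 0.66 on the log2 scale (exact permutation p = 0.0571, two-sided, adjusted p = 0.196). Of the main scar chains, Col3a1 measured 1392, 1305, 1174 and 2150 TPM in MI_stiff (-0.47 ± 0.23 against MI, 95% interval -0.95 to 0.02), Col1a2 582, 469, 538 and 983 TPM (-0.17 ± 0.23) and Col1a1 644, 531, 609 and 1168 TPM (0.32 ± 0.34). Without the 4 libraries with few detected genes, 4 collagen genes were called lower in MI_stiff than in MI replicate 1. They were Col18a1 (-1.38, adjusted p = 0.0229), Col6a2 (-1.04, adjusted p = 0.0353), Col6a6 (-2.42, adjusted p = 0.0392) and Col8a2 (-2.39, adjusted p = 0.0394).

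**Figure D4:**
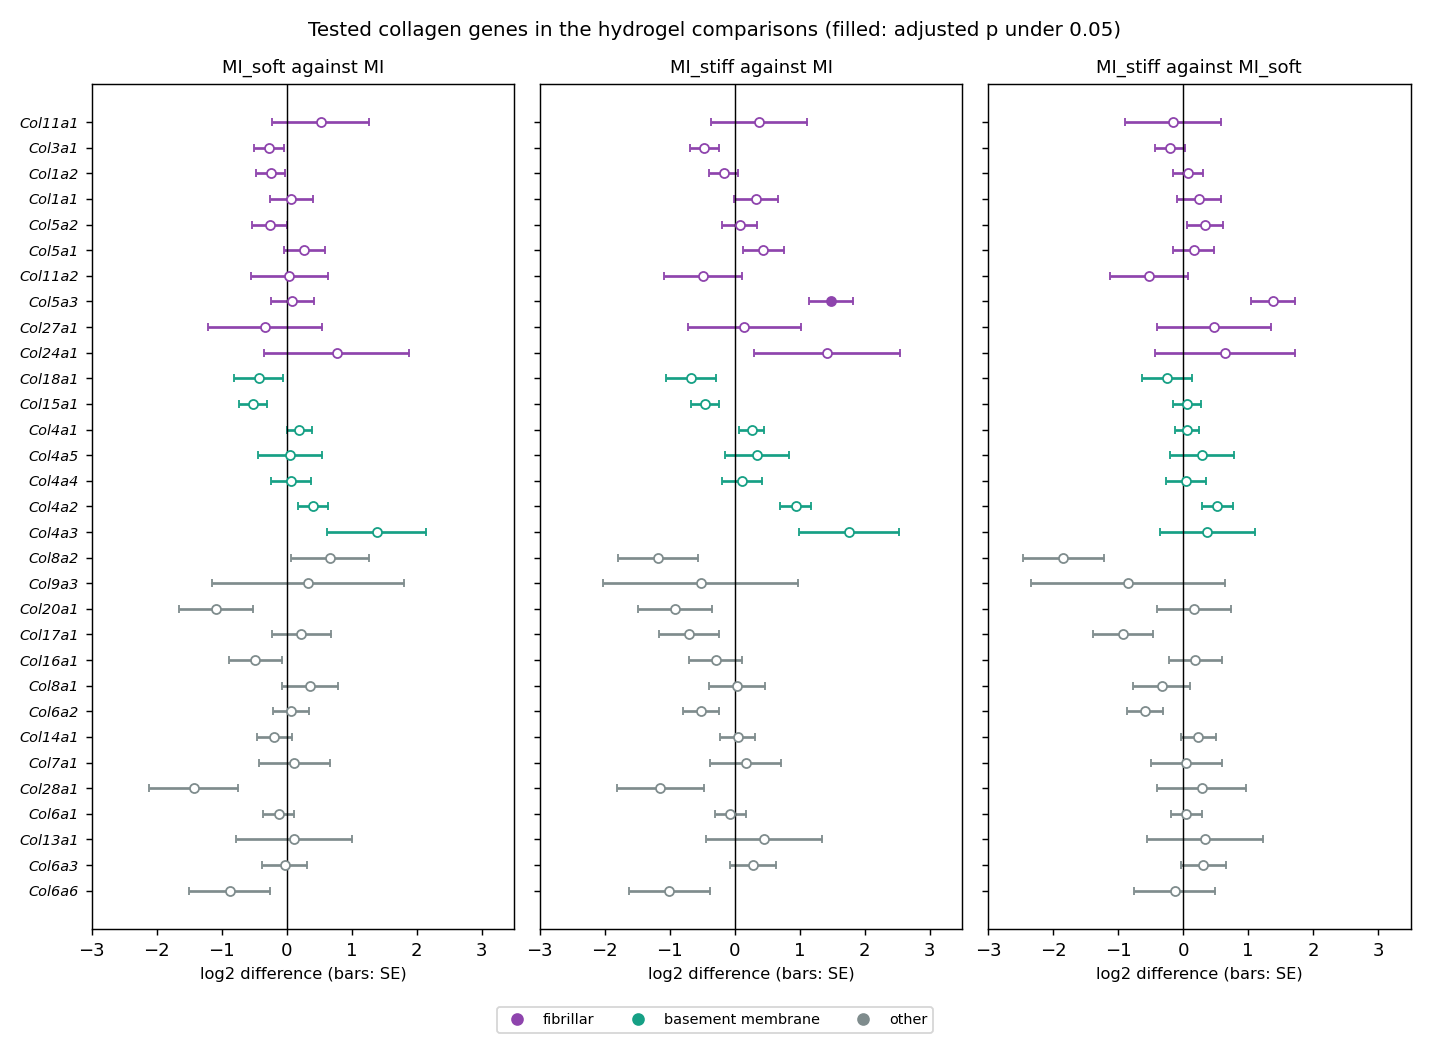
Log2 differences of the 31 tested collagen genes (y axis, same order in each panel) between the ligated groups, with the standard error of the edgeR fit as bars; filled points had an adjusted p under 0.05. The only filled point is Col5a3 at 1.48 in MI_stiff against MI.

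Between the gels, 0 of 31 collagen genes were called in MI_stiff against MI_soft, where 0.0967% of all tested genes were (0.0615% higher and 0.0352% lower; 63.6% of calls were higher, and 77.8% with library totals alone). Libraries did not overlap in CPM for 1 higher gene, Col5a3, and 1 lower gene, Col8a2, against 4.47% and 6.87% of all tested genes. DESeq2 called 1 and limma-voom 0, and 3 had an unadjusted p under 0.05 (2 higher and 1 lower in MI_stiff). The lower one was Col8a2, which measured 0.56, 0.71, 2.32 and 1.03 TPM in MI_stiff and 4.16, 2.67, 6.06 and 2.14 TPM in MI_soft, so that in TPM MI_stiff replicate 3 lay above MI_soft replicate 4. The difference was -1.84 ± 0.62 (95% interval -3.15 to -0.54, adjusted p = 0.204), and the call was made only without the 4 libraries with few detected genes (-1.94, adjusted p = 0.0297). The higher ones were Col5a3 and Col4a2, the latter at 0.53 ± 0.24 (adjusted p = 0.325). Of the collagen pathway lists, the single call between ligated groups was Ctsk, the collagen-degrading protease cathepsin K. It was higher in MI_stiff than in MI (1.32 ± 0.28, adjusted p = 0.0366).

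The proportion of type I to type III chains lay apart between the gels without passing the adjusted test. The ratio of Col1a1 to Col3a1 was 0.462, 0.407, 0.519 and 0.543 in MI_stiff and 0.357, 0.357, 0.364 and 0.343 in MI_soft, without overlap and 0.43 higher on the mean log2 scale. The ratio of Col1a1 to Col1a2 was 1.11, 1.13, 1.13 and 1.19 in MI_stiff and 0.965, 1.09, 0.992 and 0.988 in MI_soft, also without overlap and 0.18 higher. For both, the exact permutation p was 0.0286 (two-sided) and the adjusted p 0.172. The same ratios ran from 0.147 to 0.444 and from 0.519 to 1.33 in MI, with the top value of each in MI replicate 1. None of the 24 ratio tests (6 ratios in 4 comparisons) passed the adjustment, which with 4 libraries per group would take at least 14 tests at the smallest possible p.

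**Figure D5:**
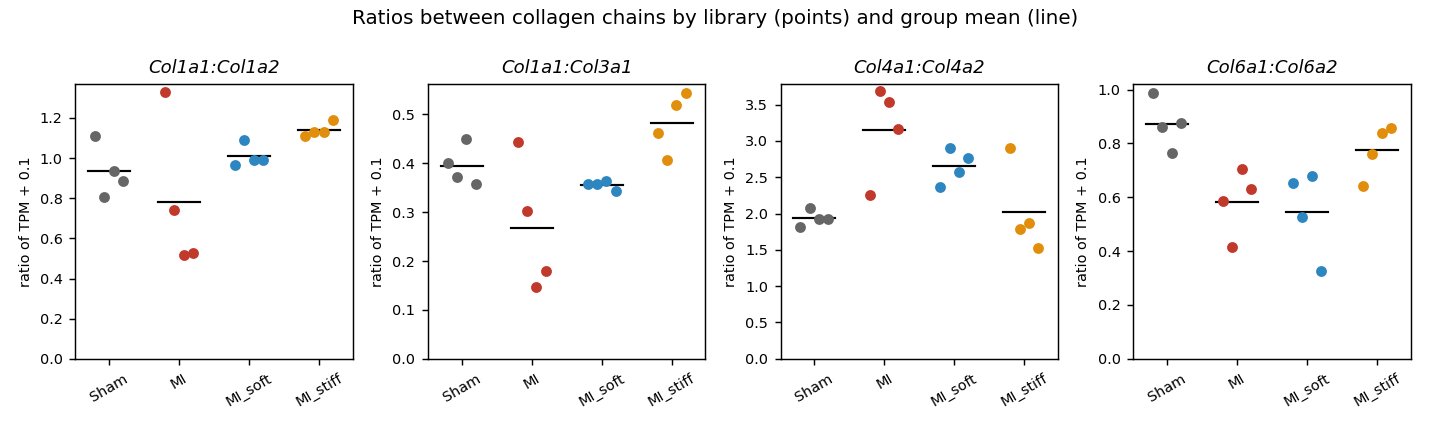
Ratios between 4 pairs of collagen chains, from TPM plus 0.1 (y axes, starting at 0), in each library (points) with group means (lines), 4 libraries per group. The ratio of Col4a1 to Col4a2 had a mean of 1.93 in Sham and 3.16 in MI (adjusted p = 0.172 by exact permutation), and the ratio of Col1a1 to Col3a1 had its highest mean, 0.483, in MI_stiff.

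Against Sham, most chains called in MI were also called in both gel groups. In MI_soft against Sham, 16 of 31 collagen genes rose and 0 fell (26.1% of all tested genes were called, 16.4% as higher and 9.71% as lower; 62.7% of calls were higher, and 85.3% with library totals alone), with a median of 0.99 against 0.01 over all tested genes. In MI_stiff against Sham, 17 rose and 0 fell (21.2% of all tested genes, 12.7% as higher and 8.44% as lower; 60.2% of calls were higher, and 88.7% with library totals alone), with a median of 1.21 against 0.02. Libraries did not overlap for 17 collagen genes that were higher in MI_soft and for 20 in MI_stiff, against 20.9% and 19.3% of all tested genes. The 3 comparisons share the Sham libraries, and 15 genes were called higher in all 3: Col1a1, Col1a2, Col3a1, Col5a2, Col6a1, Col6a2, Col7a1, Col8a1, Col8a2, Col11a1, Col14a1, Col15a1, Col16a1, Col17a1 and Col18a1. In counts, Col5a1 was called in both gel groups, at 0.99 ± 0.32 in MI_soft (adjusted p = 0.0291) and 1.15 ± 0.32 in MI_stiff (adjusted p = 0.0152). With effective lengths as offsets in the edgeR fit, it was also called in MI (1.55, adjusted p = 5.51e-05). It stayed called in MI_soft (1.58, adjusted p = 6.63e-05). Its mean TPM was 62.9 in MI, 64.2 in MI_soft and 76.1 in MI_stiff. Col20a1 was called against Sham in MI alone, with adjusted p-values of 0.0677 in MI_soft and 0.0521 in MI_stiff, and DESeq2 called both (0.0367 and 0.0189). Its gel differences from MI, -1.08 ± 0.57 and -0.92 ± 0.57, were not called.

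Several of these calls lay near the threshold. Col7a1 lost its call in MI_soft and in MI_stiff under 14 of 26 alternatives each, with log2 differences over all alternatives of 1.36 to 1.87 and 1.25 to 2.03. In counts, Col5a1 lost its MI_soft call without MI_soft replicate 1, 2 or 3 or Sham replicate 2 or 3 (0.88 to 0.99, adjusted p up to 0.0857). It lost its MI_stiff call without Sham replicate 3 (1.09, adjusted p = 0.0507). In MI_stiff, Col8a2 lost it without MI_stiff replicate 3 (1.95, adjusted p = 0.064), without Sham replicate 1 (2.34, adjusted p = 0.0522) and under limma-voom (2.37, adjusted p = 0.114). Col17a1 lost it without MI_stiff replicate 3 (1.5, adjusted p = 0.0509). Col11a1 lost it in MI_stiff under limma-voom (5.82, adjusted p = 0.0703). Col4a1 did not overlap Sham in either gel group, yet its differences of 0.40 ± 0.19 (adjusted p = 0.132) and 0.46 ± 0.19 (adjusted p = 0.0952) were not called. With library totals alone both were (0.59, adjusted p = 0.0411, and 0.78, adjusted p = 0.00915). Without the 4 libraries with few detected genes, calls were gained for Col6a3 (0.74 in MI_soft and 0.78 in MI_stiff) and Col20a1 (1.53 and 1.70). In MI_stiff they were also gained for Col4a1 and Col4a2 (0.48 each).

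Of the 21 other collagens, 7 did not pass the filter on low counts. Col6a4 had 0 counts in every library, which allows up to 3 counts per library, or 0.208 to 0.274 CPM, for counting error only. Col19a1 (5 counts in all 16 libraries), Col26a1 (3) and Col6a5 (7) had at most 4 counts in any library. Col22a1 had 24 counts in all, 13 of them in MI replicate 1. The counts of Col19a1 and Col26a1 were identical to those of other genes. Col9a1 and Col9a2, chains of the cartilage-type collagen IX, had 117 and 164 counts in all, most of them in 3 libraries.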

How the data were processed

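RNA from the infarct zone was sequenced after mRNA purification and a NEBNext Ultra library preparation, per the labels' protocols. The authors deposited expected counts, read estimates that can be fractional, and TPM values, both for 17085 genes. STAR 2.7.3a and RSEM 1.3.1 with genome build rn7 were used, per the submitters' processing notes; neither the annotation nor the strand setting is stated, and antisense and overlapping genes cannot be told apart. Fractional values made up 0.785% of the deposited expected counts, which were rounded for the fits. Library totals of 10940685 to 14456186 counts limit precision for the rare chains, and levels in TPM carry no depth.

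Groups and replicate numbers came from the labels. edgeR 4.0.16 (R 4.3.3) filtered low counts by group, scaled libraries by TMM and fitted all 16 libraries together with its robust quasi-likelihood test; the common coefficient of biological variation was 0.403. Chain ratios were tested by exact permutation over libraries (SciPy 1.17.1). Alternatives were DESeq2 1.42.0, limma-voom (limma 3.58.1), other scaling and filters, and left-out libraries. Effective lengths, count over TPM divided by a factor per library, were examined after the Col5a1 values were seen. In simulated counts for MI against Sham over 11214 genes, the fit called 65 of 99 genes changed 4-fold, 19 of 97 changed 2-fold and 2 of 11018 unchanged. Far fewer genes were changed there than the 36.6% called in the data, so these rates need not hold for the real fit. Named chains were those called in any comparison, the 3 most abundant and the 2 most changed of each class, and the chains of the ratios; pathway genes were the 3 largest called changes of each list. The members and lists were chosen with earlier results of these data known. Sequences are RefSeq's, build GRCr8, matched by symbol.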

Additional observations from a re-analysis of the deposited data

Results flagged for a closer look

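In all, 11 values stood further from the other 3 libraries of their group than Dixon's test allows for 4 samples. With 100 sets of 4 libraries tested chance alone flags about 1 in 20.

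In MI_soft replicate 4, one of the libraries with few detected genes, 4 genes were low. Col15a1 was at 63.3 TPM against 98.2 to 107 in the other MI_soft libraries, Col1a2 at 400.2 TPM against 562 to 589, Col5a2 at 11.6 TPM against 48.8 to 58.2 and Col6a3 at 6.71 TPM against 27.4 to 35.2. In Sham replicate 2, which had the highest share of mitochondrially encoded counts (50.5%) and the lowest summed collagen TPM of its group (521 against 735 to 932), 3 basement membrane genes were low: Col18a1 at 1.26 TPM against 2.37 to 2.66, Col4a1 at 71.1 TPM against 98.6 to 105 and Col4a5 at 6.61 TPM against 10.5 to 10.6. The 4 other values stood alone in their library. Col6a3 was high in MI replicate 1 (50.3 TPM against 16.4 to 19.5), and Col4a5 was high in MI_stiff replicate 2 (17.1 TPM against 12.6 to 13.3). Col5a3 was low in MI_soft replicate 1 (6.32 TPM against 8.60 to 9.16). The summed collagen TPM was high in MI_stiff replicate 4 (5549 against 3087 to 3347), the library with the lowest mitochondrially encoded share (25.1% against 38.5 to 44.7% in the other MI_stiff libraries). In composition-scaled CPM, Col3a1 there was 8272, against 5330 to 8174 in the other 3. The part of the mitochondrial share in these values was not tested.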

How the results depend on the processing

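Of 186 differences of single collagen genes, each under up to 26 alternatives, 0 reversed with a call; of 4810 alternative values, 4692 kept their side of the threshold, 77 lost a call and 41 gained one. In MI against Sham, 17 calls became 15 to 19, and 16 to 19 when 1 library was left out. MI_soft against Sham (16 calls) gave 14 to 16 and MI_stiff against Sham (17 calls) 14 to 19 on leaving out 1 library. MI_soft against MI (0 calls) gave 0 to 2, with 2 only without MI replicate 1.

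MI_stiff against MI (1 call) depended most on the processing. It gave 0 calls with library totals alone and with only the 2 groups in the fit, 2 with DESeq2, 4, all lower, without the 4 libraries with few detected genes, and 0 to 3 on leaving out 1 library. MI_stiff against MI_soft (0 calls) gave 1 with DESeq2, 2 without those 4 libraries and 0 on leaving out any 1. With library totals alone, the median of all tested genes moved from 0.01 to 0.16 in MI_stiff against MI, from 0.01 to 0.13 in MI_stiff against MI_soft, from 0.01 to 0.23 in MI_soft against Sham and from 0.02 to 0.35 in MI_stiff against Sham. The chain ratios, which could hardly pass the adjusted test at this sample size, gave 0 calls under each pseudocount and with CPM in place of TPM, although the log2 difference of the Col5a1 to Col5a2 ratio in MI against Sham went from -0.27 to -1.28 with CPM, which does not use the effective lengths. The cause of these shifts was not tested, beyond the smaller number of libraries in the fits that leave some out.

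The replicate numbers did not pair the libraries: correlations between the deviations of same-numbered libraries from their group means ran from -0.343 to 0.191. With the number as a replicate block, the counts of calls were 16 in MI against Sham, 0 in MI_soft against MI, 0 in MI_stiff against MI, 0 in MI_stiff against MI_soft, 15 in MI_soft against Sham and 16 in MI_stiff against Sham.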

Other observations

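Chains of the cartilage-type collagens IX and XI were concentrated in 1 library of each ligated group, a pattern chosen after its values were seen and given without a test. In MI replicate 4, MI_soft replicate 3 and MI_stiff replicate 1, Col9a1 had 30, 46 and 34 counts, against 0 to 4 in the other 13 libraries. Col9a2 had 67, 27 and 48 counts, against 0 to 7, and Col9a3 had 58, 87 and 50 counts, against 0 to 11. Col11a1, which was raised in all ligated groups, had 505, 964 and 1148 counts in these 3 libraries, against 45 to 409 in the other 9 ligated ones. Col11a2 had 137, 222 and 108 counts, against 19 to 77 in the other 13. Genes of cartilage and bone matrix were high in the same libraries. Acan, the main cartilage proteoglycan, reached 2.36, 3.83 and 2.61 TPM there, against at most 1.08 TPM elsewhere, and Ibsp, bone sialoprotein, reached 3.58, 2.04 and 10.5 TPM, against at most 1.06 TPM. Bglap, which encodes osteocalcin, was at 4.27, 0.59 and 24.6 TPM, against at most 2.77 TPM, so MI_soft replicate 3 did not stand out for it. The transcription factors of the same marker list did not follow this pattern. Sox9 was at 0, 2.22 and 1.21 TPM in these 3 libraries and at 3.06 TPM in MI replicate 1. Runx2 was at 0.46, 1.18 and 1.97 TPM, and at 1.60 TPM in MI replicate 1.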
